A study of Bos taurus with 8 samples.

Results

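RAB proteins are the largest family of small GTPases and label the membranes of the vesicle pathway. In the GTP-bound form a RAB recruits effectors that move, tether or fuse a vesicle; exchange factors load GTP, TBC-domain proteins speed its hydrolysis, and a geranylgeranyl transferase attaches the lipid that anchors the protein. In granulocytes, the blood leukocytes that are mostly neutrophils, RABs are known for their part in phagosome maturation and in the release of granules. RAB genes were taken from the array by symbol: RAB followed by a number and optional letters, or a symbol that starts with RAB3GAP, RABGAP, RABEP, RABGGT or RABAC. This gave 31 of the 6845 genes with a symbol, each with 1 probe. RAB5IF meets the pattern by its letters, although it is named as a RAB5-interacting factor and is no GTPase. Of the 31, 24 were bright enough to be tested, among 5071 tested genes in all.

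Granulocytes of Bos taurus cows were sampled in vivo from the same 4 animals on day 7, before embryo transfer, and again on day 21, pregnant by embryo transfer; the labels give no age, breed or purity of the cells. Each sample's total RNA, amplified and marked with the dye Cy3, was read on an Agilent array of its own, which gave 8 single-colour arrays, 4 per day. The series title places the study around the response of blood cells to interferon tau, the signal of the ruminant conceptus, at the time of implantation. The day 7 sample came first in every cow, so the effects of pregnancy, of the transfer and of elapsed time cannot be told apart, and in a bulk sample fewer cells of a type and less RNA per cell cannot be told apart either. A level below is a probe's log2 processed signal after subtraction of the array's own 75th percentile, and levels are compared between arrays for 1 probe at a time. A log2 change is day 21 minus day 7, with its standard error (SE), from limma. Unless a block is named, the fit is unpaired and does not use which cow a sample came from.

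The median processed signal ran from 49.1 to 186.9 intensity units per array, and 56.8% to 74.9% of probes stood well above background. Precision is limited by the 4 arrays per day. Slide 1 held both arrays of cow 1 and the day 7 array of cow 2, and the day 21 array of cow 2 was alone on its slide. Slide 3 held both arrays of cow 3, and slide 4 both arrays of cow 4. A difference given below within slide 3 or 4 is therefore the difference of that cow. Within slide 1 it sets cow 1 on day 21 against the day 7 mean of cows 1 and 2. The day 21 array of cow 1 stood apart in CXCR1, a chemokine receptor of neutrophils, with a level of -6.14 against 4.02 to 4.31 on the other day 21 arrays and 2.30 to 2.89 on day 7. After Benjamini-Hochberg adjustment over all 10459 tested probes in limma, 0 probes (0%) had an adjusted p under 0.05, while 983 probes (9.40%) had an unadjusted p under 0.05. No RAB gene therefore passed the adjusted threshold, and every difference below is given with that limit.

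The sequences that carry the measurements are the 60-base probes, printed 5′ to 3′ from the array files for the 4 RAB genes with the smallest p and for a probe described as similar to Rab-7. The RAB7B probe is printed whole. It has an open reading frame on its sense strand, as does every other probe printed here. The longest run that the RAB7B probe shares with any other probe on the array, on either strand, is 13 bases. Of the others the last 30 bases are given, with the polyadenylation motif AATAAA, or its reverse complement TTTATT, in capitals.
RAB7B: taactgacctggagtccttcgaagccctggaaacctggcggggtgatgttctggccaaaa
RAB34: ttatgcattaaaatttctgttattagcaaa
RAB8B: attgttacagcacaatctgagattcatatc
RAB26: tcttttgatcaaaagctTTTATTtctggtc
probe described as Rab-7: tctgtaagagacgaacgtgatgccAATAAA
AATAAA was found in 3 of the 31 RAB probes (9.68%) and in 11.3% of all 15208 probes. TTTATT was found in 1 RAB probe (3.23%), that of RAB26, and in 4.14% of all probes. The GC content of the RAB probes ran from 30% to 55% with a median of 45%, against a median of 43.3% over the array. None of the 31 RAB probes shared a run of more than 15 bases with another probe on either strand. The probe described as Rab-7, which is not among the 31, shared a run of 17 bases with that of TSSC4.

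RAB7B, which acts between late endosomes, lysosomes and the trans-Golgi network and is known in macrophages for moving Toll-like receptors to degradation, showed the greatest change among the 24 tested RAB genes. On day 7 its level was -4.17, -3.14, -4.75 and -4.79 in cows 1 to 4, and on day 21 it was -2.78, -0.29, -1.83 and -0.36. All 4 day 21 values lay above all 4 day 7 values, and each cow was higher on day 21, by 1.39, 2.84, 2.92 and 4.43. The mean level was -4.21 ± 0.77 (SD, n = 4) on day 7 and -1.32 ± 1.21 (SD, n = 4) on day 21, a log2 change of 2.89 ± 0.62 (SE), or 7.43-fold. The unadjusted p in limma was 0.000765 and the adjusted p was 0.310. With cow as a block the SE was 0.48 and the adjusted p 0.124. The probe was well above background on 4 of 4 day 21 arrays and on 3 of 4 day 7 arrays. On the day 7 array of cow 4 its level of -4.79 lay under -4.33, the lowest level well above background there, so the difference of 4.43 in that cow is set against a signal that was not well above background.

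The size of the RAB7B difference depended on the background correction and on the cows included. With normexp correction, which adds an offset of 50 and compresses dim signals, the log2 change was 1.99 ± 0.50 (SE), or 3.97-fold. With slide as a block it was 2.55 ± 0.64 (SE), and within slides it was 0.87 on slide 1, 2.92 on slide 3 and 4.43 on slide 4. Leaving out the day 21 array of cow 1 gave 3.38 with an adjusted p of 0.0436, and with array quality weights, which are highest on the arrays of cow 4, it was 3.57 with an adjusted p of 0.0126. It was 2.70 with an adjusted p of 0.659 without the day 7 array of cow 4, 2.38 without both arrays of cow 4 and 3.40 without both of cow 1. Over the 21 settings that kept the probe, the change stayed between 1.99 and 3.57 and the unadjusted p was under 0.05 in 21; the adjusted p ran from 0.0126 to 0.9999 and was under 0.05 in those 2 settings.

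**Figure D1:**
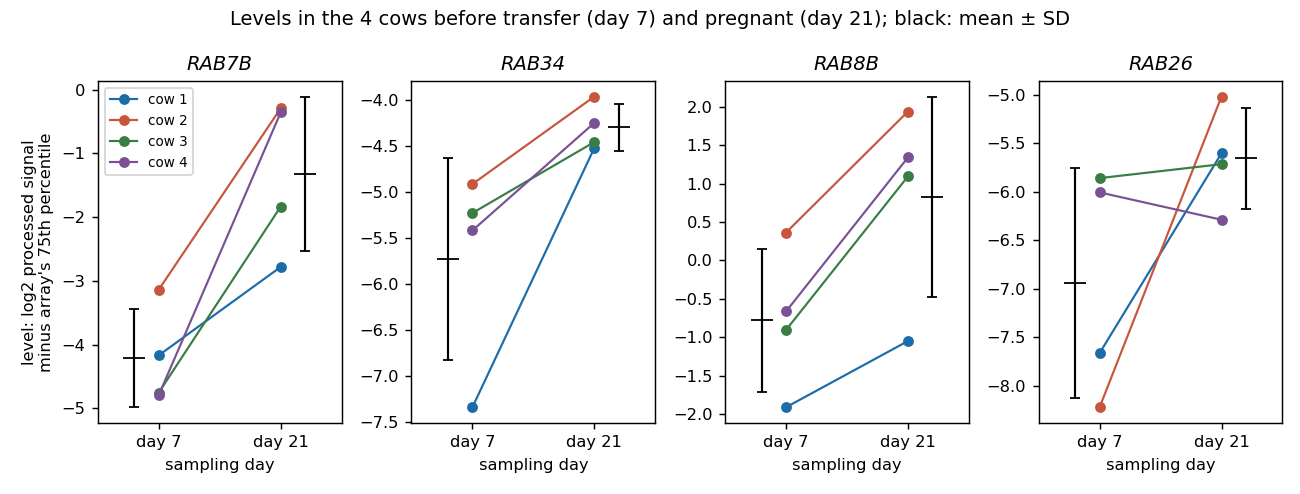
Levels of RAB7B, RAB34, RAB8B and RAB26 (log2 processed signal, centred on each array's 75th percentile) on day 7 and day 21; coloured lines join the 2 samples of a cow, and the black marks are the mean ± SD of 4 cows. The RAB7B lines run from between -4.79 and -3.14 to between -2.78 and -0.29, while the RAB26 line of cow 4 runs downward.

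RAB34, a Golgi-associated RAB that positions lysosomes and takes part in macropinocytosis, was the other tested RAB gene whose days did not overlap. Its level was -7.34, -4.92, -5.23 and -5.42 on day 7 in cows 1 to 4, and -4.52, -3.97, -4.46 and -4.25 on day 21. The day 21 values lay close together, and the day 7 value of cow 1 was far below the others. The log2 change was 1.42 ± 0.52 (SE), with an unadjusted p of 0.0197 and an adjusted p of 0.495 in limma. The probe was well above background on 2 of 4 day 7 arrays, those of cows 2 and 3, and normexp correction brought the change down to 0.45 ± 0.35 (SE). Without both arrays of cow 1 it was 0.96 ± 0.32 (SE), and with slide as a block it was 1.22 ± 0.57 (SE); within slides 1, 3 and 4 it was 1.60, 0.77 and 1.17.

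The remaining RABs of late endosomes and of routes to the lysosome had smaller log2 changes, none with an unadjusted p under 0.05. RAB9A, which returns mannose 6-phosphate receptors from late endosomes to the Golgi, had a log2 change of 0.04 ± 0.38 (SE). RAB31, which works between the trans-Golgi network and endosomes, was at 3.20 to 4.72 on day 7 and 3.22 to 3.89 on day 21, a log2 change of -0.56 ± 0.40 (SE). It was lower in cows 2, 3 and 4 by 0.82, 0.51 and 0.92 and nearly level in cow 1, and the days overlapped. Its unadjusted p was 0.191, against 0.0182 with array weights (-0.79 ± 0.28, SE) and 0.0428 without the day 7 array of cow 1. RAB24, an atypical RAB linked to autophagy, was at -1.21, 0.31, 2.85 and 2.98 on day 7 and at 0.63, 1.46, 2.29 and 2.08 on day 21. Its values separated by slide: the 3 arrays of slide 1 lay between -1.21 and 0.63 and the 5 others between 1.46 and 2.98. The log2 change of RAB24 was 0.38 ± 0.87 (SE), upward in cows 1 and 2 and downward in cows 3 and 4. RAB2A and RAB9A also had slide 1 apart from the other slides, with levels of 2.69 to 3.22 against 1.68 to 2.68 for RAB2A and of 2.21 to 2.71 against 1.65 to 2.05 for RAB9A.

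Among the RABs of secretion, RAB8B, which carries post-Golgi cargo to the plasma membrane, was higher on day 21 in each cow. Its level was -1.91, 0.36, -0.90 and -0.66 on day 7 and -1.05, 1.93, 1.09 and 1.34 on day 21. The differences of cows 1 to 4 were 0.86, 1.57, 1.99 and 2.00; the days overlapped because cow 1 was low on both. The probe was well above background on all 8 arrays. The log2 change was 1.61 ± 0.67 (SE), or 3.05-fold, with an unadjusted p of 0.0373 and an adjusted p of 0.514 in limma. With cow as a block the SE was 0.29, the unadjusted p 0.00129 and the adjusted p 0.124. With slide as a block the change was 1.09 ± 0.67 (SE); it was -0.27 within slide 1, where the day 7 mean includes cow 2, and 1.99 and 2.00 within slides 3 and 4. Over 22 settings it ran from 1.09 to 2.23, with an unadjusted p under 0.05 in 13 and an adjusted p from 0.0379, with array weights, to 0.9999.

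RAB26, known from secretory granules and from the delivery of vesicles to autophagosomes, rested on dim signals. On day 7 it was well above background on 1 of 4 arrays, that of cow 3, and the values of cows 1 and 2, -7.66 and -8.22, were surrogates that the scanner software puts in place of a signal it cannot tell from background. The other day 7 levels were -5.86 and -6.01, and the day 21 levels were -5.60, -5.02, -5.72 and -6.29 with 4 of 4 arrays well above background. Cow 3, the only cow with a signal well above background on both days, differed by 0.14. The log2 change was 1.28 ± 0.57 (SE) with an unadjusted p of 0.0480 and an adjusted p of 0.527 in limma. It was 0.24 ± 0.37 (SE) with normexp correction, 0.48 ± 0.49 (SE) with array weights and 0.64 ± 0.56 (SE) without cow 2; with cow as a block the unadjusted p was 0.0765. With slide as a block it was 0.89 ± 0.53 (SE), and within slides 1, 3 and 4 it was 2.34, 0.14 and -0.28.

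The other RABs of secretion gave changes smaller than their errors. RAB27B, which docks secretory lysosomes and granules, had a log2 change of 0.14 ± 0.47 (SE), with cow differences from -0.84 to 1.22. RAB10, an exocytic RAB, had a log2 change of 0.09 ± 0.34 (SE). RAB13, known from cell junctions, was at -5.65 to -2.93 on day 7 and -5.03 to -3.17 on day 21, a log2 change of -0.16 ± 0.65 (SE). Its sign depended on the setting, with values from -0.73 to 0.35, and 2 cows lay on each side of 0. RAB3A, RAB3B and RAB3C, which control regulated exocytosis in neurons and endocrine cells, were too dim to test. RAB3A and RAB3B were well above background on 0 of 8 arrays, and RAB3C on the day 21 array of cow 1, where its level was -4.16.

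None of the RABs of recycling endosomes had an unadjusted p under 0.05 in the unpaired fit. RAB4A, of the fast recycling route, had a log2 change of 0.36 ± 0.55 (SE) and was higher on day 21 in each cow, by 0.06 to 0.67, with the day 7 array of cow 4 not well above background. RAB11A, of the slow recycling route, had a log2 change of 0.03 ± 0.39 (SE). RAB25, a RAB11 relative best known from epithelia, had the lowest change of the 24, -0.85 ± 0.65 (SE). Its level was -5.31, -5.26, -6.41 and -6.62 on day 7 and -5.99, -5.36, -8.42 and -7.25 on day 21. Each cow was lower on day 21, by 0.67, 0.10, 2.01 and 0.63, yet the days overlapped, and the probe was well above background on 5 of 8 arrays. The day 7 value of cow 4 was a surrogate, and the day 21 values of cows 3 and 4 were not well above background, so the differences of these cows rest on undetected signals. The unadjusted p of RAB25 was 0.220 in limma, and 0.0179 with slide as a block (-1.07 ± 0.36, SE). With normexp correction its change was -0.08 ± 0.42 (SE). RAB15, also of recycling endosomes, was well above background on 0 of 8 arrays.

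Of the RABs between the endoplasmic reticulum and the Golgi, none passed an unadjusted p of 0.05. RAB2A, of transport between these compartments, had a log2 change of 0.24 ± 0.42 (SE). RAB30, at the Golgi, was higher in each cow by 0.01 to 0.84 and had a log2 change of 0.38 ± 0.38 (SE). RAB33B, which binds ATG16L1 of the autophagy machinery, had a log2 change of -0.12 ± 0.36 (SE). RAB19, a Golgi RAB, was at -3.29, -2.24, -3.36 and -3.20 on day 7 and at -2.81, -3.91, -3.71 and -4.04 on day 21. RAB19 was lower in 3 of 4 cows and overlapped between the days, with a log2 change of -0.59 ± 0.41 (SE) and an unadjusted p of 0.180. With array weights its change was -0.80 ± 0.31 (SE) with an unadjusted p of 0.0278, and without cow 1 the unadjusted p was 0.0403. RAB28, a RAB of cilia and photoreceptors, had a log2 change of -0.13 ± 0.38 (SE).

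RAB40C differs from other RABs in carrying a SOCS box, which couples it to a ubiquitin ligase. Its level was -2.24, -1.56, -1.29 and -1.07 on day 7 and -1.25, 0.08, -0.60 and -0.81 on day 21. Every cow was higher on day 21, by 0.99, 1.64, 0.69 and 0.26, and the days overlapped by the value of cow 1 on day 21. The log2 change was 0.89 ± 0.41 (SE) with an unadjusted p of 0.0529 and an adjusted p of 0.539; with cow as a block the unadjusted p was 0.0239. With slide as a block it was 0.54 ± 0.31 (SE), and within slides 1, 3 and 4 it was 0.65, 0.69 and 0.26.

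The genes that service RABs, which met the symbol rule too, showed small differences. RABGGTA, the alpha subunit of the geranylgeranyl transferase, had a log2 change of 0.31 ± 0.47 (SE). RABGGTB, its beta subunit, was too dim to test; its level was -7.42, -6.67, -7.57 and -6.62 on day 7 and -7.38, -5.60, -6.01 and -5.06 on day 21, with 2 day 21 arrays well above background and none on day 7. RABAC1, an acceptor of prenylated RABs at the Golgi, was at 1.35 to 1.73 on day 7 and 1.62 to 2.10 on day 21, a log2 change of 0.31 ± 0.31 (SE), upward in each cow. RABGAP1L, a TBC-domain protein that stimulates GTP hydrolysis by RABs, was lower in each cow, by 0.87, 0.17, 0.18 and 0.14, a log2 change of -0.34 ± 0.44 (SE). RABEPK, an effector of RAB9, had a log2 change of 0.07 ± 0.41 (SE), and RAB5IF one of -0.15 ± 0.35 (SE). RAB9B and RAB39B were the last of the 7 dim genes, with 1 and 0 of 8 arrays well above background. For RAB3C, RAB9B and RABGGTB the mean of the brighter day lay under the bound that detection set on the other day (a mean over its 4 arrays), so no fold is given.

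**Figure D2:**
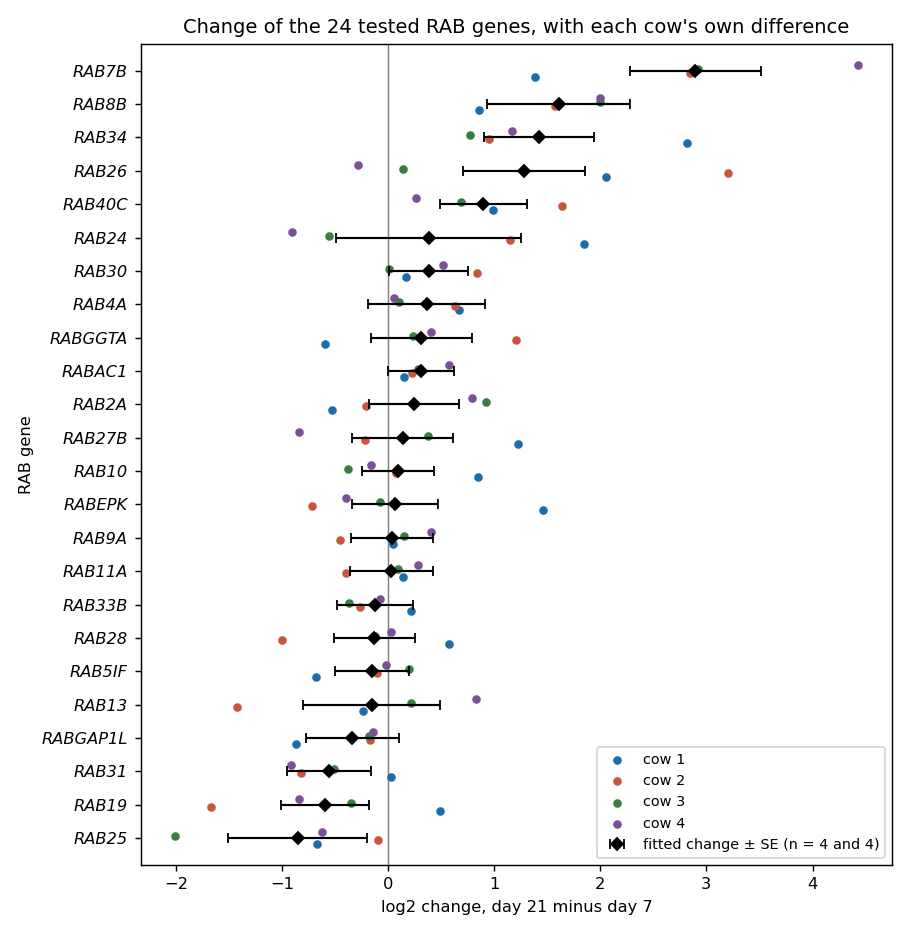
Log2 change, day 21 minus day 7, of the 24 tested RAB genes; black diamonds and bars are the fitted change ± SE (4 arrays per day) and coloured points are the differences of the 4 cows. RAB7B stands at 2.89 and RAB25 at -0.85, and 16 of the 24 changes are smaller than 0.5 in size.

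Counted over the 24 tested genes, 4 (16.7%) had an unadjusted p under 0.05 and were higher on day 21 (RAB7B, RAB34, RAB8B and RAB26), beside 269 of 5071 tested genes (5.30%). None was lower at that threshold, beside 189 genes (3.73%); with array weights 3 were higher and 2, RAB19 and RAB31, were lower. With cow as a block the count was again 4 higher, with RAB40C in place of RAB26, and 0 lower, beside 10.4% and 7.55% of genes. RAB7B, RAB34, RAB8B, RAB40C, RAB30, RABAC1 and RAB4A, 29.2% of the 24, were higher in all 4 cows, beside 16.7% of 4990 genes with 8 values. Among them RAB7B, RAB34 and RAB4A rest in part on day 7 signals not well above background. The smallest cow difference was 0.01 for RAB30 and 0.06 for RAB4A. RAB25 (in part on undetected signals) and RABGAP1L, 8.33%, were lower in all 4, beside 13.0%. The days did not overlap, with day 21 higher, for 8.33% of the RAB genes and 3.63% of all genes. The RAB genes in question, RAB7B and RAB34, both rest in part on day 7 signals not well above background. With day 21 lower, the days did not overlap for 0 of the 24 and 2.26% of all genes. Of these counts, 2 of the 4 genes at an unadjusted p under 0.05, RAB34 and RAB26, rested on probes not well above background on at least 2 day 7 arrays. The filter asked for 4 or more of the 8 arrays, so 4 day 21 arrays alone were enough. RAB34 and RAB26 met it through day 21, the day on which they were higher, so their place in the count is not independent of the filter. The share over all genes rests on the same filter. With normexp correction the count was 2.

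The family as a whole was centred near 0. The median log2 change of the 24 was 0.12, with 16 positive and 8 negative, beside 0.09 over all tested genes, of which 2866 were positive and 2205 negative. By cow the median of the RAB genes was 0.35, -0.10, 0.12 and 0.04, and that of all genes -0.09, 0.18, 0.07 and 0.08. The median of the 24 was 0.0079 without cow 1.

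**Figure D3:**
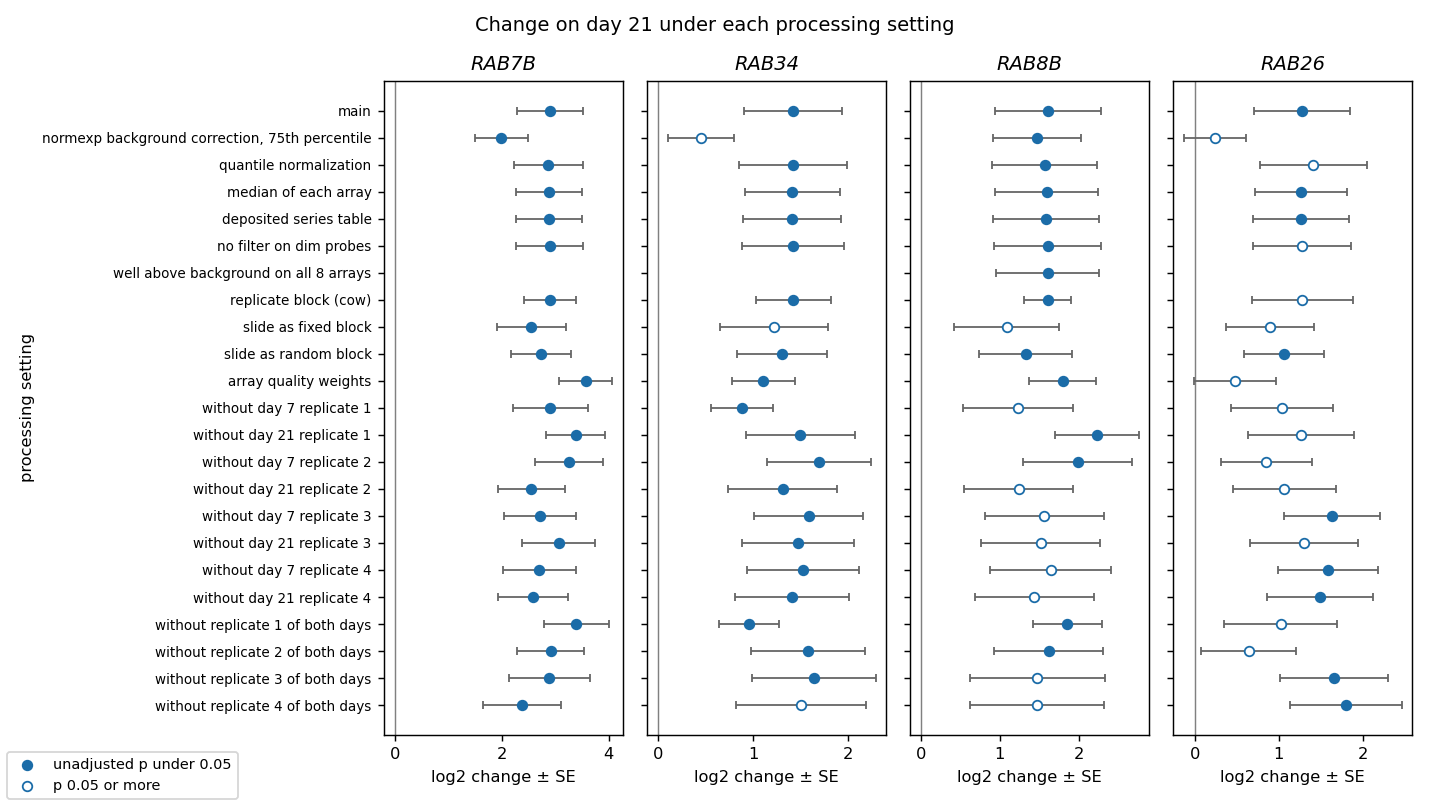
Log2 change ± SE of RAB7B, RAB34, RAB8B and RAB26 under each processing setting; filled points have an unadjusted p under 0.05 and open points do not, and a missing point marks a gene that the stricter filter removed. All RAB7B points are filled and lie between 1.99 and 3.57, while the RAB26 points run from 0.24 to 1.80.

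Genes that act on RABs or on their behalf showed single differences without a common direction. Of 37 listed GDP dissociation inhibitors, escort proteins and exchange factors, 10 were tested, 5 positive and 5 negative, with a median log2 change of 0.03. The greatest was that of RABGEF1, the exchange factor of RAB5 on early endosomes. RABGEF1 was at 0.98, 0.06, -1.46 and -0.15 on day 7 and at 0.83, 2.68, 1.88 and 2.95 on day 21. It was flat in cow 1 and higher by 2.62, 3.34 and 3.10 in cows 2 to 4, a log2 change of 2.23 ± 0.60 (SE) with an unadjusted p of 0.00382 and an adjusted p of 0.377 in limma. HPS1, part of the exchange factor for RAB32 and RAB38, had the next smallest p in limma, 0.0999, with a log2 change of 0.79 ± 0.44 (SE). Its probe was well above background on 2 of 4 day 7 arrays, and with normexp correction the change was 0.26.

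Of 38 listed TBC-domain proteins other than RABGAP1, 10 were tested, 5 positive and 5 negative, with a median log2 change of -0.06. TBC1D7, a subunit of the TSC complex, was higher in each cow by 0.79 to 1.64. Its log2 change was 1.06 ± 0.37 (SE) with an unadjusted p of 0.0158 in limma, and 0.58 with normexp correction. TBC1D1, which acts on RABs of glucose transporter vesicles, had a log2 change of 0.74 ± 0.34 (SE) with an unadjusted p of 0.0508. Of 61 listed effectors, 12 were tested, 6 positive and 6 negative, with a median log2 change of -0.13. MICAL1, a RAB-binding enzyme that oxidises actin, was at 4.57 to 4.78 on day 7 and at 3.65 to 4.07 on day 21. Its days did not overlap, and neither did those of TBC1D7 and TBC1D1, which were higher on day 21. Over all genes the days did not overlap for 2.26% with day 21 lower and for 3.63% with day 21 higher. The log2 change of MICAL1 was -0.80 ± 0.31 (SE) with an unadjusted p of 0.0262 in limma. VPS35, the core of the retromer coat, had a log2 change of -1.41 ± 0.79 (SE), with cow differences from -3.31 to 0.42; the -3.31 of cow 2 ends on a day 21 signal not well above background, and with normexp correction the change was -0.40.

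Of 10 listed RAB-like GTPases outside the symbol rule, 5 were tested, 4 positive and 1 negative, with a median log2 change of 0.47. RAN, the GTPase of nuclear transport, had a log2 change of 1.50 ± 0.53 (SE) with an unadjusted p of 0.0170, on a probe well above background on 1 of 4 day 7 arrays; with normexp correction its change was 0.40. The log2 change of IFT27, a GTPase of intraflagellar transport, was 0.72 ± 0.41 (SE). No gene of these lists had an adjusted p under 0.05.

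Markers of monocytes and macrophages were positive beside RAB7B. Of 10 listed, 6 were tested, and all 6 had a positive log2 change, with a median of 0.81. An unadjusted p under 0.05 in limma was found for 2 of the 6. CD14, VCAN and MRC1 were higher in each cow, and C1QA, C1QB and C1QC in 3 of 4. The C1QA probe was well above background on 1 of 4 day 7 arrays, and with normexp correction its change was 0.06. CD14, a lipopolysaccharide co-receptor listed here as a monocyte marker, was well above background on all 8 arrays. Its level was 1.58, 0.77, 0.49 and -0.28 on day 7 and 1.62, 2.14, 2.78 and 2.43 on day 21. The log2 change of CD14 was 1.60 ± 0.45 (SE). By cow CD14 differed by 0.04, 1.37, 2.29 and 2.70, beside 1.39, 2.84, 2.92 and 4.43 for RAB7B. In both genes cow 1 had the smallest difference. The other tested markers ordered the cows otherwise. MRC1 had its greatest difference, 2.37, in cow 1, and VCAN its smallest, 0.56, in cow 4. In C1QB and C1QC the lowest value was that of cow 2, -0.42 and -0.53, and in C1QA that of cow 1, -1.47. VCAN, a matrix proteoglycan made by monocytes, had a log2 change of 0.86 ± 0.34 (SE). The summed signal of the 6 markers, in units of the 75th percentile of the array, was 4.67 to 8.94 on day 7 and 8.56 to 14.1 on day 21. No listed monocyte marker on the array was at background throughout, and the part of these cells in the RAB7B, RAB8B and RABGEF1 values was not tested.

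Neutrophil markers varied by array. Of 10 listed, 7 were tested, 2 positive and 5 negative, with a median log2 change of -0.32 and 0 at an unadjusted p under 0.05. By cow their median difference was -1.64, 1.43, 0.09 and 0.13, so it was negative in cow 1 alone. CXCR1, MMP9 and FCGR3A were each higher in 3 of 4 cows, with differences of -8.44 and -3.72 in cow 1 for CXCR1 and MMP9 and of -2.28 in cow 2 for FCGR3A. Their summed signal was 102 to 132 on day 7 and 56.8 to 127 on day 21, with the lowest values, 56.8 and 69.1, on the day 21 arrays of cows 1 and 2. Of the 7, 6 were well above background on all 8 arrays and MPO on 3 of 4 arrays of each day. The T cell markers counted 2 positive and 4 negative, the B and plasma cell markers 3 positive and 0 negative, and the NK markers 3 positive and 1 negative. Eosinophil and basophil markers counted 1 positive and 1 negative, as did those of platelets, and erythroid markers 2 positive and 1 negative, with HBB at background on all 8 arrays. P2RY12, an ADP receptor of platelets, was lower in each cow, with a log2 change of -2.45 ± 0.45 (SE), an unadjusted p of 0.000245 and an adjusted p of 0.279 in limma, on a probe well above background on all 8 arrays; with normexp correction it was -1.11. HDC, the histamine-forming enzyme of basophils, had a log2 change of 1.07 ± 0.47 (SE), with an unadjusted p of 0.0430 in limma. Its probe was well above background on 1 of 4 day 7 arrays, and with normexp correction the change was 0.32. CCR3, the other tested marker of eosinophils and basophils, had a log2 change of -0.63 ± 0.91 (SE). ITGA2B, the other tested platelet marker beside P2RY12, had 0.10 ± 0.52 (SE). CD2, an adhesion receptor of T cells, had a log2 change of -1.14 ± 0.51 (SE), with an unadjusted p of 0.0490 in limma. The part of these cells in the RAB values was not tested. No marker had an adjusted p under 0.05.

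**Figure D4:**
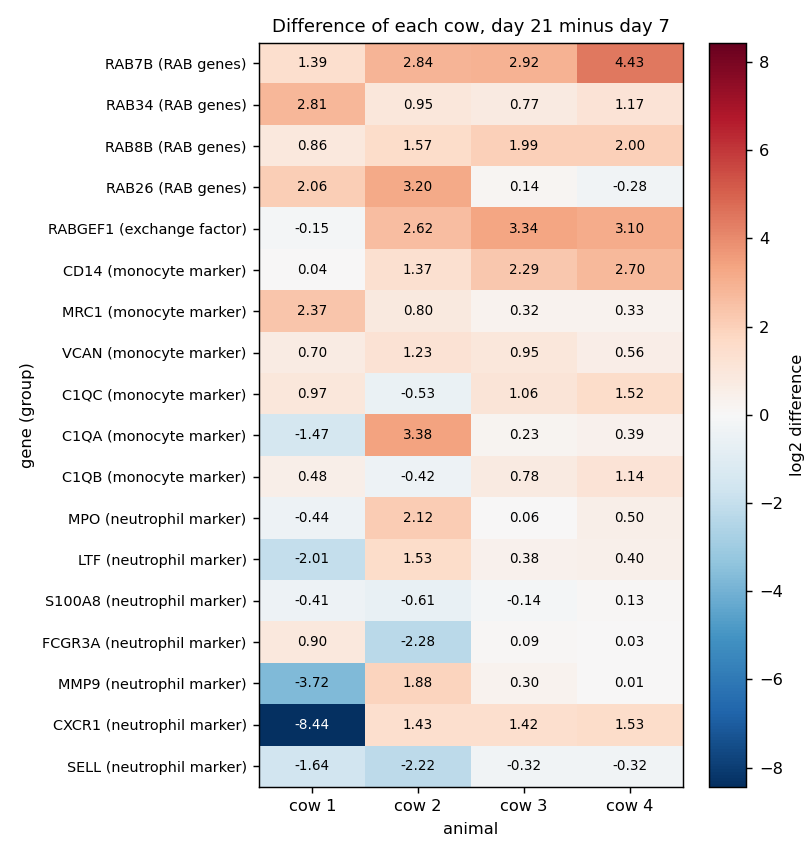
Log2 difference, day 21 minus day 7, in each of the 4 cows for the 4 RAB genes with the smallest p, for RABGEF1 and for the monocyte and neutrophil markers; red is higher and blue lower on day 21. In RAB7B the difference runs from 1.39 in cow 1 to 4.43 in cow 4, and in CD14 from 0.04 to 2.70. MRC1 has its greatest difference, 2.37, in cow 1. In CXCR1 the difference is -8.44 in cow 1 against 1.42 to 1.53 in the other cows.

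The 5 tested genes whose levels followed RAB7B most closely over the 8 arrays, among 4989 compared, were UBE2A, TMEM248, TAF4B, C1QTNF1 and MAGOH, with Pearson r from 0.964 to 0.977. The points share slides and cows, and the order describes these 8 arrays. The difference between the days was left in the levels, so genes picked for following RAB7B this closely are also higher on day 21. UBE2A is a ubiquitin-conjugating enzyme, TAF4B a subunit of the general transcription factor TFIID, and MAGOH a core protein of the exon junction complex. Their log2 changes ran from 0.81 for MAGOH to 1.63 ± 0.43 (SE) for TMEM248, all smaller than that of RAB7B.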

How the data were processed

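The deposited scanner tables hold spot intensity made by the authors with Agilent Feature Extraction 9.5, per the file headers: a background-subtracted processed signal of 1 spot per probe, with surrogates for signals not distinguishable from background. The deposited series table holds log2 values, equal to log2 processed signal minus 1 constant per array within 0.00715; the constant lies within 0.0162 of the 75th percentile, the column medians are -3.53 to -3.29, and it was used as an alternative. Tested were the 10459 of 15208 probes that the scanner software marked as well above background on 4 or more of the 8 arrays; 4749 were not. Control and outlier spots were left out, and no spot was saturated. A fit that lacks a spot for this reason uses the remaining arrays.

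Probes were named by accession (2514), gene identifier (2074), gene name (1579) or description (1019) through the RefSeq genes of ARS-UCD2.0, from which only names were taken; 8022 had no symbol. A gene was represented by its brightest probe. Groups were compared with limma 3.58.1 in R 4.3.3 (lmFit, eBayes, no block), with Benjamini-Hochberg adjustment over all tested probes; the code was tested on simulated data. The RAB genes, the partner and marker lists and the alternatives were chosen with earlier results of these data known. Named were RAB7B, RAB genes with an unadjusted p under 0.05 or without overlap, the 6 highest and 6 lowest changes, and 2 genes per partner list; others were named to account for every RAB gene, and the single cell type markers after their values were seen. Summed marker levels add the unlogged signals.

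The source names give the same cow for the same replicate number. Deviations from the group means correlated at 0.172 to 0.752 between the 2 samples of a cow (4 pairs) and at -0.474 to 0.302 between different cows on different days (12 pairs), so the pairing rests on the labels.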

Additional observations from a re-analysis of the deposited data

Results flagged for a closer look

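Within groups of 4, 3 of 48 sets of RAB gene values had 1 sample whose gap to its nearest neighbour, as a share of the group's range, was above Dixon's critical value; chance gives about 1 in 20. RAB19 on day 7 had a level of -2.24 in cow 2 (share 0.863), and the other 3 cows lay between -3.36 and -3.20. RAB30 on day 7 was at -2.71 in cow 1 (share 0.856), above the other cows. RAB10 on day 7 was at 1.07 in cow 1 (share 0.846), below the other cows.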

How the results depend on the processing

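RAB7B was positive with an unadjusted p under 0.05 in 21 of 21 settings; the filter for all 8 arrays removed it, as it removed RAB34, RAB26, RAB25, RAB4A and RAB13. Its log2 change was 3.57 with array weights 2.55 to 3.38 with an array left out and 2.38 to 3.40 with a cow left out. The count of RAB genes at an unadjusted p under 0.05 was 2 with normexp correction, with the filter for all 8 arrays and with slide as a fixed block (1 higher, 1 lower), 3 higher and 2 lower with array weights, and 2 to 5 with an array or cow left out (1 lower without cow 1 or its day 7 array). Probes called numbered 12 with slide as a random block, 603 with array weights, and 0 to 41 with an array or cow left out (41 without the day 21 array of cow 1, 36 without cow 1). The paired fit, with cow as a replicate block, called 0 probes (smallest adjusted p 0.105; 1969 at an unadjusted p under 0.05), and 4 RAB genes had an unadjusted p under 0.05; it left RAB7B at 2.89. RAB13 changed sign with normexp (0.0033), slide fixed (0.35), slide random (0.13) and weights (0.16), and ran from -0.73 to 0.18 with an array left out and up to 0.27 with a cow left out; RAB24 with slide fixed (-0.0063) and weights (-0.19), from -0.43 to 0.96 with an array left out, and -0.11 without cow 1; RAB5IF reached 0.024 without cow 1, from a lowest value of -0.33. The cause was not tested. Of the 12 RAB genes that the naming rule picks, the other 9 kept their sign in every setting that held them. Of the 12 it does not pick, 8 crossed 0 in some setting: RAB4A, RAB27B, RAB28, RAB33B, RAB10, RABEPK, RAB9A and RAB11A. The median of the RAB genes ran from 0.0079 to 0.23. Taking the mean over probes of a gene changed nothing, as each RAB gene has 1. On day 7, cow 4 had a higher background (lowest processed signal 10.6 against 2.17 to 3.61), and RAB7B, RAB34, RAB26, RAB25, RAB4A and RAB13 were not well above background there; RAB7B was 2.70 without that array.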

Other observations

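Some probes are described as RAB genes but carry no symbol that meets the rule. The probe described as similar to Rab-7, well above background on all 8 arrays, had levels of 5.02 to 5.60 on day 7 and 4.74 to 5.26 on day 21, a log2 change of -0.33 ± 0.32 (SE), beside 2.89 for RAB7B. Probes described as similar to Rab-5A, Rab-18 and RAB11a had log2 changes of 0.08, 0.06 and 0.21, and 2 described as similar to RAB3 GTPase-activating proteins had 0.37 and 0.13. A probe described as RAB7 carries an accession that RefSeq assigns to DAG1, and was too dim to test; 1 described as RAB3D is assigned to TMEM205 and had a log2 change of -0.16.

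In RefSeq, TMEM248 (log2 change 1.63 ± 0.43, SE) is the next protein-coding gene after RABGEF1 (2.23 ± 0.60, SE). The nearest protein-coding neighbour of RAB7B with a tested probe, PM20D1, had a log2 change of 0.91 ± 0.46 (SE), and RPL23A, next to RAB34, had 0.52 ± 0.55 (SE). RPS27L, next to RAB8B, had 0.09 ± 0.35 (SE). These neighbours were named after the data were seen.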
